A study of Homo sapiens with 6 samples.

Results

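The genes described here are 9 transcription factors that set and maintain epithelial identity: FOXA1, FOXA2, FOXA3, SPDEF, TP63, ELF3, HNF4A, GATA6 and NKX2-1. They were taken by gene name from the per-library tables of an RNA sequencing study of A549, a human lung adenocarcinoma cell line, and are 9 of the 58735 genes listed there. Each of the 9 names had 1 row. The study has 6 libraries in 3 groups of 2. T133A cells were A549 cells carrying, by stable lentiviral infection, the PLVX vector with HOXB9 changed at T133A, threonine to alanine in the standard amino acid code. KO cells carried a lentivirus labelled PLVX-HOXB9 KO, and the labels do not say how the gene was disrupted. WT cells carried PLVX with unchanged HOXB9. HOXB9 encodes a posterior homeobox protein that binds DNA. All cells grew in RPMI 1640 with 10% serum, and all carried a lentivirus, so the WT group is itself a line that received HOXB9. No empty-vector or uninfected cells were analysed here. The labels do not say whether a line was 1 clone, or whether the replicates were separate cultures, so p-values measure the spread between these libraries, which may be technical.

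Library totals lay between 16299059 and 18745432 counts, and 16340 genes had enough counts to be tested. HOXB9 had 274.6 and 210.3 CPM (counts scaled to library size) in T133A cells and 14.5 and 15.4 CPM in KO cells, against 222.5 and 216.9 CPM in WT cells. Its level in KO cells was thus low in both libraries, against a WT line that itself received HOXB9. The label gives no mRNA level, and whether the low level came from a disrupted gene was not tested. Its level in T133A cells did not differ from WT beyond the spread (log2 difference 0.14, SE 0.113, adjusted p = 0.495, edgeR's quasi-likelihood test). The replicates of the T133A and KO groups lay further apart than the WT replicates: the ratio of chi-square to degrees of freedom over all genes was 10.1 for T133A, 12.1 for KO and 2.46 for WT. Mitochondrial transcripts took 8.91 and 8.51% of counts in T133A cells and 5.60 and 4.45% in KO cells, against 7.87 and 7.84% in WT cells. Whether this moved any value below was not tested.

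Lineage factors of this kind bind enhancers and promoters of the genes that mark a differentiated epithelium, and several of them act on one another's genes. The FOXA proteins are forkhead factors that can bind DNA in closed chromatin. SPDEF and ELF3 belong to the ETS family; SPDEF drives goblet cell differentiation and mucus production in airway and gut, and ELF3 is expressed widely in differentiated epithelia. HNF4A is a nuclear receptor of liver, gut and kidney epithelium, and GATA6 a zinc finger factor of endoderm and of the developing lung. TP63 maintains basal cells of stratified and airway epithelium. NKX2-1 is the homeobox factor that defines lung and thyroid epithelium and activates surfactant genes in alveolar cells.

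The KO cells held far less mRNA of 5 of these factors. In KO cells against WT cells, TP63 was 39.3-fold lower, SPDEF 11.5-fold lower, HNF4A 5.15-fold lower, FOXA3 4.68-fold lower and FOXA1 4.57-fold lower; ELF3 fell by a smaller amount, 1.38-fold. In T133A cells SPDEF was 4.17-fold lower, FOXA3 1.90-fold lower and FOXA1 1.44-fold lower than in WT cells, while TP63 and HNF4A were not called (log2 differences 0.16 and -0.24). FOXA2 and GATA6 differed from WT in neither group at an adjusted p under 0.05, and NKX2-1 was at or near 0 counts everywhere. In whole-culture RNA, fewer cells of a kind and less RNA per cell cannot be told apart.

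The upstream DNA of the factors with the largest differences is shown here, because their levels moved by different amounts in T133A and KO cells and a reader may compare the sequence each gene starts from. The stretches are RefSeq's for build GRCh38.p14, 5′ to 3′ on the gene's own strand, up to 250 bases before the annotated start. Capitals mark any match, on either strand, to letters searched for: TTTATG and TTTACG for posterior HOX proteins, TGTTTAC for forkhead factors, AGATAA for GATA factors, CAAAGTCCA for HNF4A, CAAGTG for NKX2-1, CAGGAAGT for ETS factors and the palindromic NF-kB consensus.
SPDEF, chr6:34556334-34556579, minus strand: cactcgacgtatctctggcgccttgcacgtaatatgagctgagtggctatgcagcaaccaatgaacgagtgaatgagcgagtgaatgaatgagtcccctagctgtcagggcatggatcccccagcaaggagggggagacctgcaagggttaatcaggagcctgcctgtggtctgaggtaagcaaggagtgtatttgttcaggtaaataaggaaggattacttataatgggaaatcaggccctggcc
TP63, chr3:189631139-189631388, plus strand: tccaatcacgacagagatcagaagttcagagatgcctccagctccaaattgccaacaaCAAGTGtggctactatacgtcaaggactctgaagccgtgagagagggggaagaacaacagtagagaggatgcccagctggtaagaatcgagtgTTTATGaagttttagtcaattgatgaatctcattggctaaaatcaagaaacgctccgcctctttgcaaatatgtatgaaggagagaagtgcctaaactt
HNF4A upstream start, chr20:44355449-44355698, plus strand: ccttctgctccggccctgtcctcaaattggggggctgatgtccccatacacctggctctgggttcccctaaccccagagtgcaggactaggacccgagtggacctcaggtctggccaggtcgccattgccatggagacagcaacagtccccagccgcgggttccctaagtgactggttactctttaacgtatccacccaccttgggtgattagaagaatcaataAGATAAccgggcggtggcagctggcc
HNF4A start within the gene, chr20:44400989-44401238, plus strand: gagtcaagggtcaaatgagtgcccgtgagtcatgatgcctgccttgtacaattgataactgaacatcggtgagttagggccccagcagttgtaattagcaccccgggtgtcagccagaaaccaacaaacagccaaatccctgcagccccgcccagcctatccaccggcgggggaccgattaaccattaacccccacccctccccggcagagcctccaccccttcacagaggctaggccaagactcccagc
SPDEF's stretch of 246 bases held none of the 8 motifs. The TP63 stretch of 250 bases held CAAGTG, beginning 192 bases before the start, and TTTATG, beginning 99 bases before it. TP63 has 8 annotated starts, and only this stretch, upstream of the whole gene, is shown. Of the HNF4A stretches, the upstream one held AGATAA, beginning 26 bases before the start, and the other, which lies before a start within the gene, held none. Among 35116 RefSeq promoter windows, CAAGTG occurred in 9.50%, TTTATG in 9.64% and AGATAA in 9.17%, so each is common. The others occurred in 2.68% (TTTACG), 2.98% (TGTTTAC), 0.325% (CAAAGTCCA), 2.60% (CAGGAAGT) and 1.40% (NF-kB). A match here is a match of letters and no evidence of binding. Only these letters were searched, not their variants, so a stretch without a match may still hold a site.

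Levels of different genes were compared per transcript length, in the authors' deposited FPKM (fragments normalised to transcript length and library size). ELF3 was the most abundant of the 9 factors in every library, with mean levels of 22.3 ± 3.17 FPKM in T133A cells and 21.3 ± 4.92 FPKM in KO cells, against 29.2 ± 0.515 FPKM in WT cells (SD, n = 2 each). Among 1553 genes annotated with a transcription factor family, it ranked 67 in T133A cells, 69 in KO cells and 42 in WT cells by mean FPKM. In both WT libraries the order below ELF3 was FOXA1, SPDEF, FOXA2, TP63, HNF4A, FOXA3, GATA6 and NKX2-1. In T133A cells FOXA2 stood above SPDEF and GATA6 above FOXA3. SPDEF and TP63 changed places between the T133A libraries, with mean levels of 4.34 ± 0.649 and 4.69 ± 0.336 FPKM, and did not differ beyond their spread. In KO cells FOXA2 stood above FOXA1, GATA6 came next, and TP63 ranked just above NKX2-1. FOXA3 and HNF4A changed places between the KO libraries, at 0.727 ± 0.0264 and 0.749 ± 0.205 FPKM. SPDEF, at rank 85 of the transcription factor genes in WT cells, stood at rank 385 in T133A cells and 686 in KO cells. TP63 stood at rank 363 in T133A cells and 1112 in KO cells, against 410 in WT cells.

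**Figure D1:**
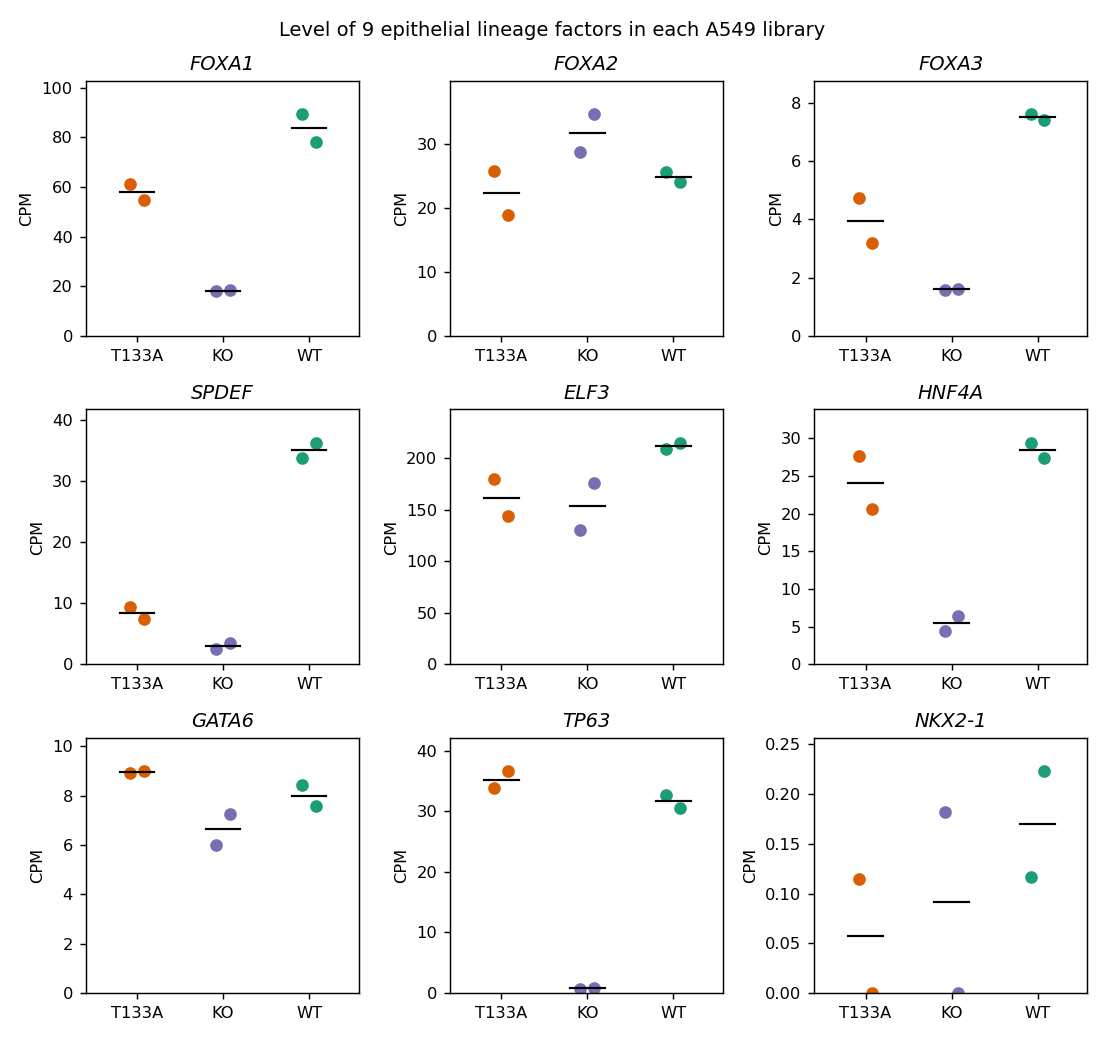
CPM of each of the 9 factors in each library, 1 panel per gene on its own axis, for T133A, KO and WT cells; points are libraries and bars are group means. TP63 and HNF4A are low in both KO libraries only, while SPDEF, FOXA1 and FOXA3 lie lower in T133A than in WT cells and lower again in KO cells.

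In T133A cells against WT cells, 3 of the 8 tested factors were called lower by edgeR at an adjusted p under 0.05 and none higher, against 9.55% of all tested genes called in either direction, 5.58% higher and 3.97% lower. Among 1122 tested transcription factor genes 9.09% were called, 4.81% higher and 4.28% lower. Without WT replicate 1 the number of factors called was 1; wherever leaving out a library left 1 in a group, that library was assumed to vary like the other groups. The median log2 difference of the 8 factors was -0.31, and that of all tested genes 0.00. In KO cells against WT cells, 6 of 8 were called lower and none higher, where 46.6% of all tested genes were called, 23.6% higher and 23% lower, and the medians were -2.21 and 0.00. Of the transcription factor genes 43.9% were called, 21.7% higher and 22.2% lower. With so many genes called, the count of factors says less than the size of their differences. Of the 1122 transcription factor genes ordered by this log2 difference, TP63 was the 3rd from the lowest, SPDEF the 9th, HNF4A the 20th, FOXA3 the 23rd and FOXA1 the 24th. In T133A cells against KO cells, 5 of 8 were called higher and 1 lower, where 39.9% of all tested genes were called, 20.3% higher and 19.6% lower, and the medians were 1.38 and -0.01. Of the transcription factor genes 40.5% were called, 19.1% higher and 21.4% lower. Of the factors, 0 were higher in T133A and 1 in KO cells against WT cells at an unadjusted p under 0.05, and DESeq2 and limma-voom also called none higher. The 8 tested factors had at least 12 counts in every library. The comparisons of T133A and KO cells with WT cells share the WT libraries, and the third shares libraries with both.

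SPDEF (ENSG00000124664, chr6:34537802-34556333, minus strand, GRCh38) was the factor that differed most in T133A cells. Its counts were 163 and 126 in T133A cells and 42 and 65 in KO cells, against 577 and 650 in WT cells. These are 9.37 and 7.41 CPM in T133A cells and 2.55 and 3.50 CPM in KO cells, against 33.7 and 36.3 CPM in WT cells. All 3 groups were separate, with KO lowest and T133A between KO and WT. The log2 difference from WT was -2.06 in T133A cells (SE 0.164, adjusted p = 4.86e-09) and -3.52 in KO cells (SE 0.187, adjusted p = 6.31e-13), by edgeR's quasi-likelihood test with Benjamini-Hochberg adjustment over all tested genes. T133A cells lay above KO cells by 1.46 (SE 0.204, adjusted p = 4.82e-06, edgeR). SPDEF was the 4th lowest of the 1122 transcription factor genes in T133A cells against WT cells.

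ELF3 (ENSG00000163435, chr1:202007945-202017188, plus strand), the other ETS factor, was abundant in all 3 groups. It had 179.8 and 143.6 CPM in T133A cells and 130.5 and 176.2 CPM in KO cells, against 208.6 and 215.0 CPM in WT cells. Both WT libraries lay above the other 4, while the T133A and KO libraries overlapped. In KO cells it fell by 0.47 on the log2 scale relative to WT (SE 0.127, adjusted p = 0.00458, edgeR), but without KO replicate 1 the difference was -0.24 and the call was lost (adjusted p = 0.115). In T133A cells the log2 difference was -0.39 (95% interval -0.64 to -0.14, adjusted p = 0.0554, edgeR), just short of the threshold. By edgeR it was called with RLE size factors (adjusted p = 0.0445), library size only, either other low-count filter, or only the 2 groups compared. With GC content and length correction edgeR called it without a replicate block (adjusted p = 0.00308) and with one (adjusted p = 0.00293). It was called with limma-voom too, and not with DESeq2 or a replicate block alone. Without T133A replicate 2 the difference was -0.23, without T133A replicate 1 it was -0.54, and without KO replicate 1 or KO replicate 2 it was -0.40. T133A and KO cells differed by 0.08 (95% interval -0.17 to 0.33, adjusted p = 0.668, edgeR).

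FOXA1 (ENSG00000129514, chr14:37589984-37596059, minus strand) is the forkhead factor best known from breast, prostate and lung epithelium. It had 61.3 and 54.7 CPM in T133A cells and 18.0 and 18.6 CPM in KO cells, against 89.3 and 78.2 CPM in WT cells. The 3 groups did not overlap. The log2 difference from WT was -2.19 in KO cells (SE 0.125, adjusted p = 2.21e-12, edgeR) and -0.53 in T133A cells (SE 0.115, adjusted p = 0.0037, edgeR). Without WT replicate 1, the WT library with the higher level, the T133A difference was -0.44 and no longer called (adjusted p = 0.167). T133A cells lay above KO cells by 1.66 (SE 0.125, adjusted p = 2.68e-10, edgeR).

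FOXA3 (ENSG00000170608, chr19:45863989-45873797, plus strand), a forkhead factor prominent in liver and gut, was the least abundant of the 3 forkhead genes. It had 4.71 and 3.18 CPM in T133A cells and 1.58 and 1.62 CPM in KO cells, against 7.60 and 7.42 CPM in WT cells, with no overlap between groups. Its counts were 82 and 54 in T133A cells and 26 and 30 in KO cells, with at least 130 in each WT library, so its values carry more counting error than those of FOXA1. In KO cells it fell by 2.23 on the log2 scale relative to WT (SE 0.263, adjusted p = 3.86e-07, edgeR). In T133A cells it fell by 0.93 (SE 0.233, adjusted p = 0.0115, edgeR). Without WT replicate 1 (-0.91, adjusted p = 0.076) or WT replicate 2 (-0.96, adjusted p = 0.0507) the difference hardly moved but was not called, with 1 WT library left. Without T133A replicate 2 it was -0.67 and not called (adjusted p = 0.102). T133A cells lay above KO cells by 1.30 (SE 0.28, adjusted p = 0.000721, edgeR).

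FOXA2 (ENSG00000125798, chr20:22581005-22585455, minus strand), a forkhead factor of endoderm and of airway epithelium, did not follow its relatives. It had 25.7 and 18.8 CPM in T133A cells and 28.8 and 34.6 CPM in KO cells, against 25.5 and 24.1 CPM in WT cells. Both KO libraries were above all others, while T133A and WT overlapped. KO cells exceeded WT cells by 0.35 on the log2 scale (95% interval 0.06 to 0.65, adjusted p = 0.0564, edgeR), short of the threshold. This difference was called in 5 of the alternatives run, for example without KO replicate 1 (0.50, adjusted p = 0.0238). T133A cells differed from WT cells by -0.16 (95% interval -0.45 to 0.14, adjusted p = 0.593, edgeR), a value whose sign turned without T133A replicate 2 (0.06). T133A cells fell below KO cells by 0.51 (SE 0.151, adjusted p = 0.00941, edgeR), a call lost without T133A replicate 2 (-0.31, adjusted p = 0.117) or KO replicate 2 (-0.37, adjusted p = 0.124).

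The mix of FOXA transcripts therefore differed between the lines. Summed over the 3 genes, deposited levels came to 26.9 and 22.5 FPKM in T133A cells and 16.0 and 18.9 FPKM in KO cells, against 35.5 and 31.9 FPKM in WT cells. FOXA1 made up 56.1 and 61.3% of that sum in T133A cells and 27.7 and 25.0% in KO cells, against 62.8 and 60.8% in WT cells. FOXA2 made up 36.0 and 32.2% in T133A cells and 67.9 and 71.1% in KO cells, against 27.5 and 28.7% in WT cells. In KO cells FOXA2 was thus the leading FOXA transcript in both libraries, and in the other 4 libraries FOXA1 was. The ratio of FOXA1 to FOXA2 FPKM was 1.56 and 1.90 in T133A cells and 0.408 and 0.352 in KO cells, against 2.28 and 2.12 in WT cells, without overlap. An exact two-sided permutation test of 2 against 2 libraries cannot give a p below 0.333, so the ratio is given as a description.

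**Figure D2:**
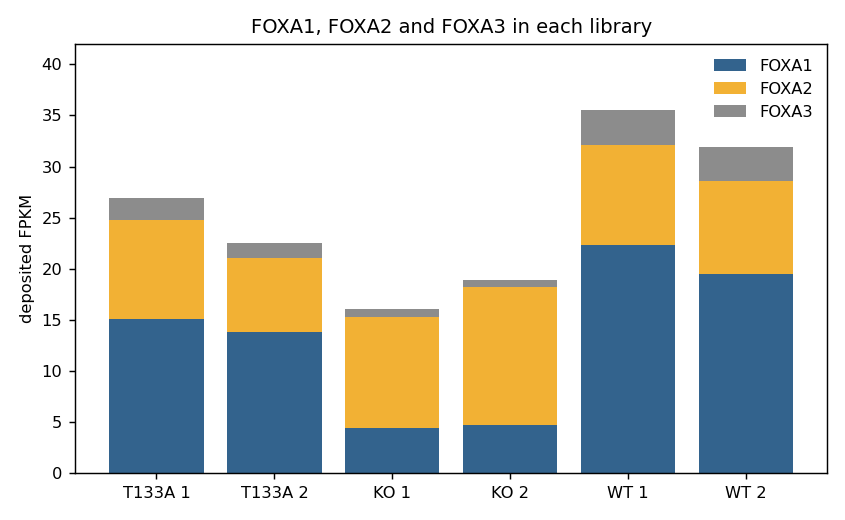
Stacked deposited FPKM of FOXA1, FOXA2 and FOXA3 in each T133A, KO and WT library. FOXA2 takes 67.9 and 71.1% of the bar in KO cells and less than FOXA1 in each of the other 4 libraries.

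HNF4A (ENSG00000101076, chr20:44355700-44434596, plus strand) was low in KO cells and not called in T133A cells. It had 27.7 and 20.6 CPM in T133A cells and 4.49 and 6.46 CPM in KO cells, against 29.4 and 27.4 CPM in WT cells. KO libraries stood apart from all others, and T133A overlapped WT. The log2 difference was -2.37 in KO cells against WT (SE 0.183, adjusted p = 4.5e-10) and 2.13 in T133A against KO cells (SE 0.185, adjusted p = 3.27e-09), by edgeR's quasi-likelihood test. T133A and WT cells differed by -0.24 (95% interval -0.55 to 0.08, adjusted p = 0.406, edgeR). The counts sum all 9 annotated transcripts, which begin at 6 different starts, so the products of the HNF4A promoters were not separated.

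GATA6 (ENSG00000141448, chr18:22169443-22202528, plus strand) varied least. It had 8.91 and 8.996 CPM in T133A cells and 6.01 and 7.27 CPM in KO cells, against 8.42 and 7.58 CPM in WT cells. The KO libraries were the lowest, with KO replicate 2 close to WT replicate 2. No comparison passed the threshold: KO against WT was -0.27 (95% interval -0.64 to 0.11, adjusted p = 0.263), T133A against WT 0.16 (95% interval -0.20 to 0.53, adjusted p = 0.658) and T133A against KO 0.43 (95% interval 0.06 to 0.80, adjusted p = 0.0752), all by edgeR.

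TP63 (ENSG00000073282, chr3:189631416-189897279, plus strand) showed the largest difference of the 9 factors. It had 589 and 623 counts in T133A cells and 12 and 16 counts in KO cells, and more than 500 in each WT library. In CPM the levels were 33.9 and 36.6 in T133A cells and 0.728 and 0.861 in KO cells, against 32.7 and 30.6 in WT cells. TP63 mRNA was thus nearly missing from both KO libraries and abundant in the other 4. The log2 difference was -5.30 in KO cells against WT (SE 0.207, adjusted p = 2.75e-15) and 5.45 in T133A against KO cells (SE 0.206, adjusted p = 1.21e-15), by edgeR's quasi-likelihood test. T133A and WT libraries did not overlap, T133A being higher, but the difference was within the spread between libraries (0.16, 95% interval -0.10 to 0.41, adjusted p = 0.52, edgeR). The gene has 14 annotated transcripts from 8 starts. The gene-level counts do not tell the long p63 forms from the N-terminally shortened ones that basal cells mainly make.

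NKX2-1 (ENSG00000136352, chr14:36516392-36521149, minus strand) was not detectable above a few reads. It had 2 and 0 counts in T133A cells and 3 and 0 counts in KO cells, against 2 and 4 counts in WT cells, and was not tested. Summed over the libraries of a group, this was 0.0565 CPM in T133A cells (exact 95% Poisson interval 0.00685 to 0.204), 0.0856 CPM in KO cells (0.0177 to 0.250) and 0.175 CPM in WT cells (0.0643 to 0.381). The intervals overlap and cover counting error only. These values use library totals without TMM scaling. As a one-sided limit for a single library, separate from those intervals, a count of 0 allows up to 3 counts, which is 0.176 CPM in T133A replicate 2 and 0.160 CPM in KO replicate 2. The surfactant genes SFTPA1, SFTPA2, SFTPB and SFTPC had at most 4 counts in any library, and the club cell gene SCGB1A1 had 0 in all 6. SFTPD, another surfactant gene, had 11 and 5 counts in T133A cells and 1 and 6 in KO cells, against 14 and 10 in WT cells. Other alveolar genes were expressed, as given with their list.

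**Figure D3:**
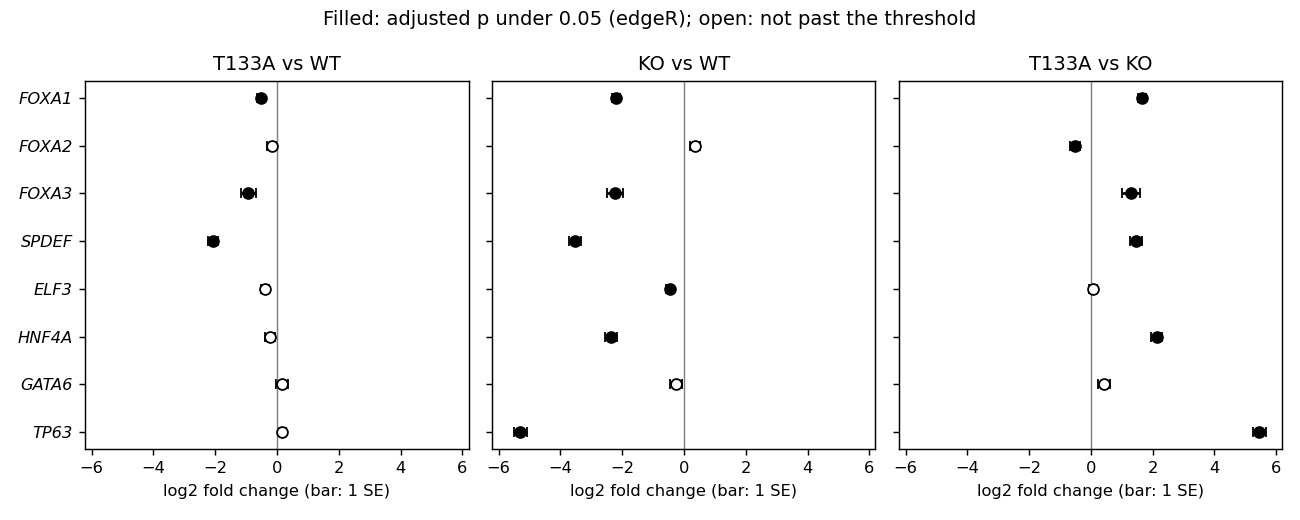
Log2 differences of the 8 tested factors, with bars of 1 standard error, for T133A against WT, KO against WT and T133A against KO cells, from edgeR's fit to all libraries; filled points passed an adjusted p of 0.05. TP63 and HNF4A are near 0 in T133A against WT and far below 0 in KO against WT cells, while SPDEF is below 0 in both.

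Reads from genes that overlap a factor can enter its count, since the strand setting of the counting is not given in the sources used here. TTC6 runs antisense to FOXA1 and shares 16 exon bases with it. It had 35 and 43 counts in T133A cells and 11 and 11 in KO cells, against 75 and 93 in WT cells, far fewer than FOXA1. Its log2 difference was -2.92 in KO cells (adjusted p = 3e-07, edgeR) and -1.08 in T133A cells (adjusted p = 0.0143, edgeR), the second not called without WT replicate 2 (-0.96), without T133A replicate 1 (-0.90) or with DESeq2 (-1.08). ELF3-AS1 shares 664 exon bases with ELF3 on the other strand. It had 142 and 142 counts in T133A cells and 83 and 80 in KO cells, against 172 and 162 in WT cells, while ELF3 had at least 2149. ELF3-AS1 was lower in KO cells (-1.03, adjusted p = 0.000157, edgeR) and did not differ beyond the spread in T133A cells (-0.21, adjusted p = 0.545, edgeR). GATA6-AS1, which shares 240 exon bases with GATA6, had at most 7 counts.

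The nearest tested protein-coding genes on each side were examined as well, 18 genes for the 9 factors. In T133A cells against WT cells 1 was higher and 1 lower, in KO cells against WT cells 2 were higher and 8 lower, and in T133A against KO cells 5 were higher and 3 lower. Over all tested genes 9.55%, 46.6% and 39.9% were called in these comparisons. The flanking gene that was lower in T133A cells was PACSIN1, an endocytosis adaptor gene 2.57 kb from SPDEF. It had 8 and 2 counts in T133A cells and 6 and 9 in KO cells, against 39 and 40 in WT cells. It entered the test only through the WT libraries, so its calls are no support and its counts are given as a description. The one that was higher in T133A cells was THBD, the gene of the anticoagulant receptor thrombomodulin, 460 kb from FOXA2. It was higher in T133A cells (0.99, adjusted p = 9.37e-06, edgeR) and lower in KO cells (-1.58, adjusted p = 4.36e-09, edgeR) than in WT cells, in neither case like FOXA2. MIPOL1, 37.6 kb from FOXA1, was lower in KO cells (-0.79, adjusted p = 0.00322, edgeR), but not with a correction for GC content and length (-0.31).

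**Figure D4:**
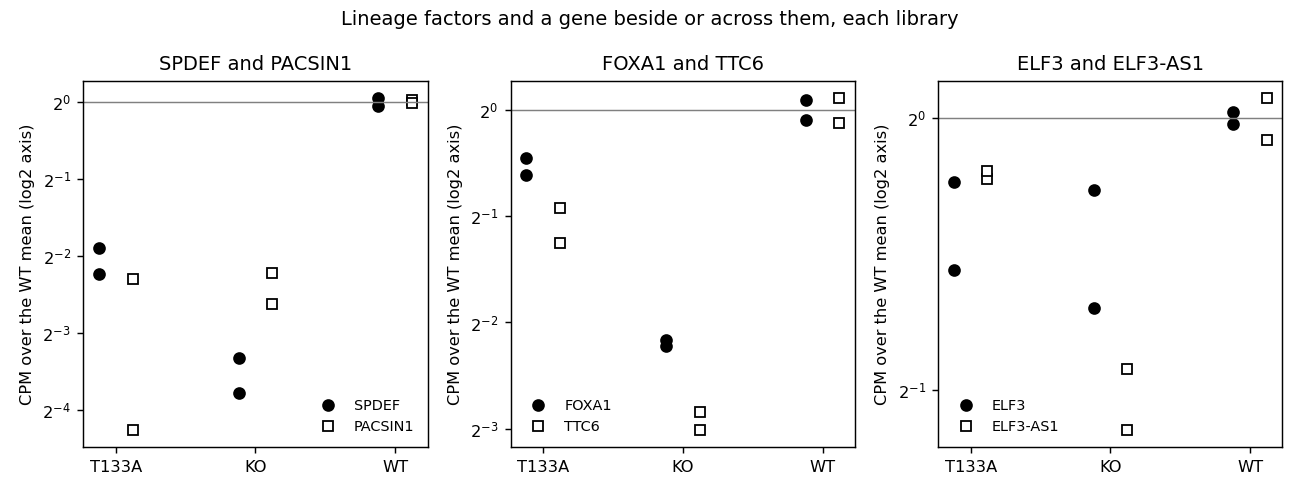
CPM over the WT mean, on a log2 axis, of SPDEF with PACSIN1, FOXA1 with TTC6 and ELF3 with ELF3-AS1 in each T133A, KO and WT library; circles are the factor and squares the other gene. PACSIN1 lies below WT in all T133A and KO libraries, whereas SPDEF is lower in KO than in T133A cells.

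Of 36 other epithelial lineage factors listed beside the 9, 26 were tested. In KO cells against WT cells 13 were lower and 5 higher, where 23% of all tested genes were lower and 23.6% higher, and the median log2 difference was -0.58. EHF, an ETS factor close to ELF3, had 93.4 ± 1.81 CPM in T133A cells and 8.90 ± 0.635 CPM in KO cells, against 86.3 ± 3.55 CPM in WT cells (SD, n = 2 each); its log2 difference was -3.28 in KO cells (SE 0.128, adjusted p = 2.62e-15, edgeR). CREB3L1, a factor of the secretory pathway, differed more (-4.55, SE 0.174, adjusted p = 1.98e-15, edgeR). KLF5, a factor of proliferating gut and airway epithelium, fell by 1.82 in KO cells (adjusted p = 5.63e-12, edgeR). NR5A2, a nuclear receptor of liver, pancreas and gut, went the other way (1.90, SE 0.119, adjusted p = 1.28e-11, edgeR). Without WT replicate 2 or KO replicate 2 the number higher was 3. In T133A cells against WT cells, 3 of the 26 were lower and none higher, where 3.97% of all tested genes were lower, and the median was 0.06. These were CREB3L1 (-0.61, adjusted p = 0.00288), HNF4G (-0.60, adjusted p = 0.0285) and ONECUT2 (-0.60, adjusted p = 0.0381), by edgeR. Without WT replicate 1 none of the 3 was called, and without T133A replicate 2 there was 1 higher; HNF4G and ONECUT2 were also not called with DESeq2 or the GC correction. At an unadjusted p under 0.05, 5 were higher. In T133A against KO cells 12 were higher, among them EHF (3.39, adjusted p = 1.09e-15, edgeR), and 6 lower. Over all tested genes 20.3% were higher and 19.6% lower.

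Goblet and mucus genes, which SPDEF is known to control, were listed as 20 genes, of which 14 were tested. In T133A cells against WT cells 7 were lower and 1 higher, where 3.97% of all tested genes were lower and 5.58% higher, and the median log2 difference was -0.86. MUC5AC, the gel-forming airway mucin, had 564.4 ± 46.4 CPM in T133A cells and 12.5 ± 0.306 CPM in KO cells, against 1338 ± 79.1 CPM in WT cells (SD, n = 2 each). Its log2 difference from WT was -1.24 in T133A cells (SE 0.105, adjusted p = 1.31e-08) and -6.74 in KO cells (SE 0.138, adjusted p = 4.96e-20), by edgeR. AGR2, a protein folding enzyme of mucus-secreting cells, fell by 1.17 in T133A cells (SE 0.1, adjusted p = 1.79e-08) and by 5.24 in KO cells (adjusted p = 3.03e-19), by edgeR. FCGBP, a mucus protein, fell by 0.93 in T133A cells (adjusted p = 2.27e-06) and by 5.03 in KO cells (adjusted p = 3.29e-18), by edgeR. SYTL2, a vesicle trafficking gene, was the 1 that was higher in T133A cells (0.92, adjusted p = 0.00177, edgeR). The number higher was 2 with RLE size factors, limma-voom, no low-count filter or a replicate block. It was also 2 with GC content and length correction plus a replicate block. In KO cells against WT cells 11 of 14 were lower and none higher, with a median of -3.90. Over all tested genes 23% were lower and 23.6% higher. In T133A against KO cells 11 were higher and none lower, with a median of 2.45. Over all tested genes 20.3% were higher and 19.6% lower. Genes at very low level in 1 or both of the KO and T133A groups entered the test through the other libraries, here and in the lists that follow. These counts are therefore a description. Among the 7 lower in T133A cells, ST6GALNAC1 entered only through the WT libraries. It had 4 and 2 counts in T133A cells and 0 and 2 in KO cells, against 17 and 24 in WT cells. For each count of none in these lists, the count at an unadjusted p under 0.05 was 0 too, and DESeq2 and limma-voom called none.

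Liver and gut enterocyte genes, many of them known HNF4A or FOXA targets, were listed as 30 genes, of which 19 were tested. In KO cells against WT cells 15 were lower and none higher, with a median of -3.95. Over all tested genes 23% were lower and 23.6% higher. CDH17, an adhesion protein of gut epithelium, had 138.2 ± 7.29 CPM in T133A cells and 2.62 ± 0.705 CPM in KO cells, against 263.4 ± 3.59 CPM in WT cells (SD, n = 2 each). FGB, a fibrinogen chain made by liver, had 161.4 ± 6.61 CPM in T133A cells and 0.613 ± 0.351 CPM in KO cells, against 141.4 ± 2.85 CPM in WT cells. It was lower in KO cells (-7.80, SE 0.196, adjusted p = 7.99e-19, edgeR) and did not differ beyond the spread in T133A cells (0.19, adjusted p = 0.318, edgeR). CDH17 was lower in both, by -0.93 in T133A cells (adjusted p = 1.94e-06) and -6.63 in KO cells (adjusted p = 3.03e-19), by edgeR. Over all tested genes 3.97% were lower and 5.58% higher in T133A cells against WT cells. HNF4A itself was not called there (-0.24, 95% interval -0.55 to 0.08), while FOXA1 and FOXA3 were called lower. Whether these factors moved the listed genes was not tested. Of the 19, 10 were lower and none higher in T133A cells against WT cells, with a median of -0.86. They included ADH1C, an alcohol dehydrogenase (-1.91, SE 0.143, adjusted p = 1.68e-09, edgeR), UGT2B15, a glucuronidating enzyme (-1.77, adjusted p = 2.52e-05, edgeR), and TM4SF4, a tetraspanin-like membrane protein (-0.86, adjusted p = 1.43e-05, edgeR). Over all tested genes 20.3% were higher and 19.6% lower in T133A against KO cells. In T133A against KO cells 14 were higher and 1 lower, the lower one not called without T133A replicate 2, without KO replicate 2, with DESeq2, with limma-voom or with only the 2 groups compared in the fit. With only genes of at least 5 CPM on average tested, 8 were tested, of which 5 were lower in T133A and 8 in KO cells against WT cells.

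Basal cell genes, the genes of cells that TP63 maintains, did not move as one group. Of 15 tested among 21 listed, 5 were higher and 1 lower in T133A cells against WT cells, and 3 were higher and 7 lower in KO cells against WT cells; the medians were 0.28 and -0.15. Over all tested genes 9.55% were called in T133A and 46.6% in KO cells against WT cells. In T133A against KO cells 6 were higher and 2 lower, where 20.3% of all tested genes were higher and 19.6% lower. LAMB3, a laminin chain of the epithelial basement membrane, had 233.4 ± 33.1 CPM in T133A cells and 31.0 ± 0.0514 CPM in KO cells, against 54.0 ± 4.46 CPM in WT cells (SD, n = 2 each). It was higher in T133A cells (2.11, adjusted p = 9.76e-12, edgeR) and lower in KO cells (-0.80, adjusted p = 1.09e-05, edgeR). TRIM29, a gene expressed with TP63 in squamous and basal cells, was lower in KO cells (-4.02, SE 0.188, adjusted p = 6.81e-14, edgeR) and was not called in T133A cells (-0.22, adjusted p = 0.362, edgeR). JAG2, a Notch ligand of basal cells, was higher in KO cells (1.23, adjusted p = 1.33e-08, edgeR). Leaving out WT replicate 1 gave 3 higher in T133A cells, leaving out WT replicate 2 gave 2, and the number lower in KO cells was 4 without WT replicate 2. The 1 lower in T133A cells was not called without WT replicate 1, WT replicate 2 or T133A replicate 1.

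Of 20 lung alveolar and club cell genes, targets of NKX2-1 among them, 7 had enough counts to be tested. ABCA3, a lipid transporter of lamellar bodies, had 138.4 ± 10.5 CPM in T133A cells and 88.4 ± 2.59 CPM in KO cells, against 129.1 ± 0.138 CPM in WT cells (SD, n = 2 each). LPCAT1, an enzyme of surfactant lipid synthesis, had 129.3 ± 7.94 CPM in T133A cells and 178.1 ± 11 CPM in KO cells, against 124.9 ± 5.85 CPM in WT cells. None was called in T133A cells against WT cells by edgeR's test, DESeq2 or limma-voom, and 0 passed an unadjusted p of 0.05, the most abundant, CAV1, differing by 0.13 (adjusted p = 0.534). In KO cells against WT cells 2 were higher and 3 lower, of 7, where 46.6% of all tested genes were called. CAV1, a gene of flat alveolar and many other cells, was higher (1.65, adjusted p = 1.03e-10, edgeR), and LAMP3, a gene of lamellar bodies, was lower (-2.29, adjusted p = 3.46e-08, edgeR). In T133A against KO cells 2 were higher and 2 lower, where 20.3% of all tested genes were higher and 19.6% lower.

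**Figure D5:**
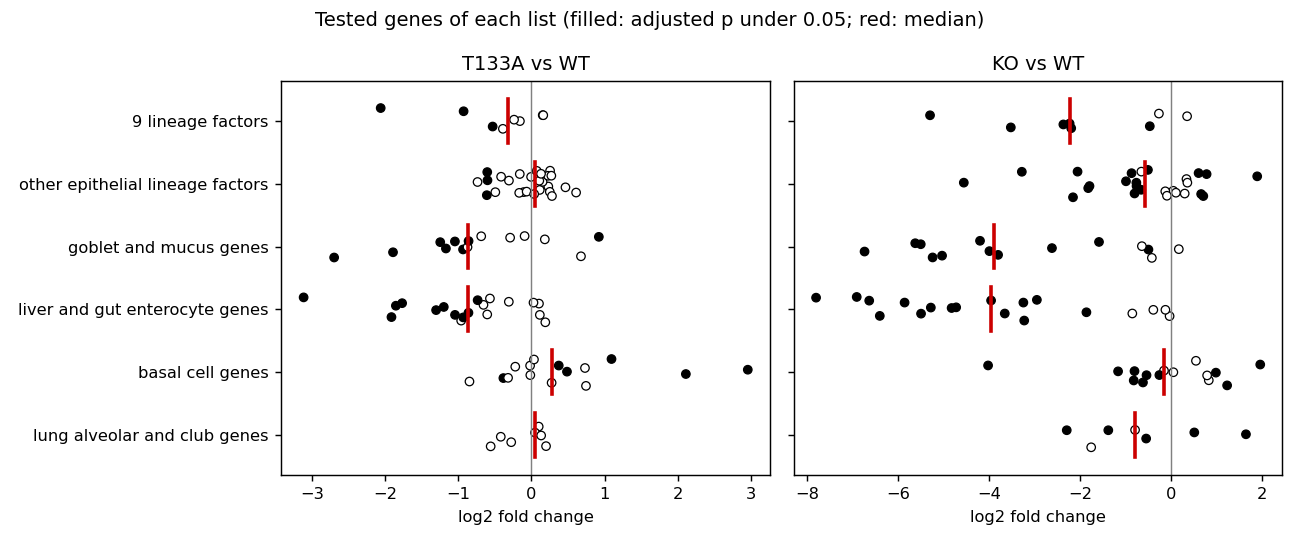
Log2 differences of the tested genes of each list in T133A against WT and KO against WT cells, 1 point per gene, filled where the adjusted p was under 0.05, with a red line at the median. The goblet and the liver and gut lists have medians of -0.86 and -0.86 in T133A against WT and -3.90 and -3.95 in KO against WT cells, while basal cell genes spread to both sides of 0.

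Markers of other cells were measured beside these lists. Of 8 general A549 and simple epithelium genes, 5 were lower and 1 higher in KO cells against WT cells. Over all tested genes 23% were lower and 23.6% higher. The 8 genes summed to 17986 to 19579 CPM in T133A cells and 14314 to 15230 CPM in KO cells, against 20507 to 21404 CPM in WT cells. KRT7, the 1 higher, had 1401.6 and 1227.0 CPM in T133A cells and 1925.5 and 1638.3 CPM in KO cells, against 869.7 and 887.6 CPM in WT cells. Its log2 difference from WT was 0.58 in T133A cells (adjusted p = 0.00121) and 1.02 in KO cells (adjusted p = 1.38e-07), by edgeR. In T133A cells against WT cells KRT7 was the 1 higher and AKR1B10 the 1 lower (-0.76, adjusted p = 2.48e-05, edgeR). Over all tested genes 5.58% were higher and 3.97% lower there. In T133A against KO cells 5 of the 8 were higher and 2 lower, where 20.3% of all tested genes were higher and 19.6% lower. EPCAM, an epithelial adhesion protein, was lower in KO cells (-3.10, adjusted p = 4.01e-11, edgeR), and CDH1, or E-cadherin, less so (-0.88, adjusted p = 1.34e-06, edgeR). The summed level of 7 fibroblast genes was 40.4 to 42.3 CPM in T133A cells and 9.71 to 10.7 CPM in KO cells, against 41.9 to 42.4 CPM in WT cells. LUM and COL3A1 were highest by the mean over all libraries. In KO cells COL1A1 made up most of the sum, at 9.04 and 9.90 CPM, against 6.43 and 6.36 CPM in WT cells. Of 4 tested, 3 were lower in KO cells against WT cells, where 23% of all tested genes were lower and 23.6% higher. These 3, LUM, COL3A1 and DCN, lay at 0 to 0.243 CPM in the KO libraries. They entered the test only through the T133A and WT libraries, so their calls are a description. COL1A1 was higher in KO cells (0.57, adjusted p = 0.0255, edgeR). The 6 haematopoietic genes summed to 11.4 to 13.2 CPM in T133A cells and 5.34 to 11.0 CPM in KO cells, against 8.36 to 11.6 CPM in WT cells, mostly CD14. The 4 endothelial genes summed to 2.13 to 2.23 CPM in T133A cells and 0.304 to 0.323 CPM in KO cells, against 0.669 to 1.70 CPM in WT cells. The part of these markers in the differences above was not tested.

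Genes whose profile over the 6 libraries lay closest to each factor were ranked by the Euclidean distance between centred log2 CPM values, as a description with no test. Closest to SPDEF were MYO1A (distance 0.672), SLC17A4 (0.705) and ENTPD2 (0.762), so the nearest gene to SPDEF lay farther from it than any of the 3 nearest lay from each other factor. Closest to TP63 were EPS8L3 (0.318), FGG (0.362), which is a fibrinogen chain, and FILIP1 (0.512). COL4A4 (0.173), PAX7 (0.265) and TOX3 (0.291) lay closest to FOXA1, and CORO2A (0.193), RSAD2 (0.293) and SH3PXD2A (0.295) to HNF4A. PLXNA2 (0.269), TSPAN1 (0.330) and IGFBP5 (0.367) lay closest to FOXA3, NR2F6 (0.094), FIZ1 (0.136) and NOTCH1 (0.143) to FOXA2, and PGD (0.090), CD99L2 (0.135) and TMEM143 (0.167) to ELF3.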

How the data were processed

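Total RNA from 6 A549 libraries, 2 in each of 3 groups, was sequenced by the submitters with standard Illumina protocols. The authors deposited raw counts per gene, made with HISAT2 2.0.5 and featureCounts 1.5.0 on GRCh38 per the submitters' processing notes, and the FPKM they derived from them; no source used here names the annotation release or strand setting. FPKM served only to compare levels between genes. Gene counts were tested in 1 fit of all libraries, by group, with edgeR 4.0.16 (TMM, its low-count filter, robust quasi-likelihood), Benjamini-Hochberg adjusted over 16340 genes with a threshold of 0.05. CPM values are scaled by TMM, except those of NKX2-1 and of 3 counts, which use library totals. Errors are SD over 2 libraries or the fit's standard error. Depth was 16299059 to 18745432 counts, so that 3 counts are 0.160 to 0.184 CPM. Names of 27 genes stored as dates were restored from their identifiers. Alternatives used other scalings, filters, DESeq2 1.42.0, limma 3.58.1 (voom), GC content and length correction with GENCODE transcripts, a replicate block and libraries left out. The members and lists were chosen with earlier results of these data known. Named were all 9 factors, up to 4 called genes with the smallest adjusted p per list and comparison, and, per called factor, the 3 most alike genes; other list and flanking genes (among them CDH1, and FGB in T133A cells) were named after their values were seen. The fit was tested on simulated data. Results for some genes are not reported here.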

Additional observations from a re-analysis of the deposited data

How the results depend on the processing

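Of 381 recomputed values of single factors over 16 alternative settings, 355 kept their direction and side of the threshold, 16 became called, 7 lost a call and 3 changed sign. The sign changes were FOXA2 in T133A against WT cells with 1 library left out (-0.38 to 0.056, the positive value without T133A replicate 2), and ELF3 in T133A against KO cells (-0.16 to 0.32, negative without T133A replicate 1 or KO replicate 1). The number of genes called in T133A against WT cells was 1560 in the reported fit, 2401 with GC content and length correction, and 763 to 2579 with 1 library left out; the factors called there numbered 1 to 4, with 1 without WT replicate 1. Left-out libraries gave 5306 to 8496 genes in KO against WT and 5112 to 6580 in T133A against KO cells. Of the genes called in T133A against WT cells 58.5% were higher, and 45.0% when scaled by library size only. In KO against WT cells 50.7% were higher, and 65.8% with GC correction, which moved the median of all genes by 0.16; in T133A against KO cells it was 50.9%, and 34.9% with that correction. Samples of the same replicate number did not deviate together (correlations -0.05, 0.02 and -0.12). The differences between replicates also followed GC content, with rank correlations of 0.50 in T133A, -0.29 in KO and -0.18 in WT cells. The first correlations therefore cannot decide whether the number pairs the libraries. With a replicate block 1419, 7165 and 6031 genes were called in T133A against WT, KO against WT and T133A against KO cells, and 3, 6 and 6 factors. A crossed block for T133A and KO cells, chosen after seeing the data, called 7074 genes and 6 factors. With 2 libraries a group, each differing also by line, effects of the line and of the construct cannot be told apart. Depth limits NKX2-1, at 0 to 4 counts.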
